A study of Mus musculus with 6 samples.

Results

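The mRNA levels of 10 mouse genes for amino acid transporters were described in the livers of control and Blnc1 LKO mice fed the NASH diet. The genes are both members of the Slc3 family (Slc3a1 and Slc3a2), 5 members of the Slc7 family (Slc7a1, Slc7a2, Slc7a5, Slc7a8 and Slc7a9) and 3 members of the Slc38 family (Slc38a2, Slc38a3 and Slc38a4). They were found by their symbols, and each has 1 row among the 17460 gene symbols of the table. The set was put together around Slc3a1, which had been noticed for its lower values in Blnc1 LKO livers. Differences between the groups in these 10 genes are therefore a description, and no p-value is given for them. Counts of the genes called are printed only beside the share of all genes called.

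Slc3 proteins do not carry amino acids themselves. They are heavy chains, single-pass membrane glycoproteins that bind a light chain of the Slc7 family through a disulfide bond and bring it to the cell surface, and the light chain is the transporter. In the liver, amino acid uptake feeds urea synthesis, gluconeogenesis, protein synthesis and glutathione synthesis, and much of the glutamine and alanine uptake runs through sodium-coupled carriers of the Slc38 family, which need no heavy chain.

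Blnc1 is a long noncoding RNA. LKO stands for its liver-specific knockout, which was made by giving Cas9 transgenic mice an adenoviral vector with sgRNAs against Blnc1 through the tail vein. The sequenced mice were C57BL/6, 9 months old and fed the NASH diet, a diet of fructose, trans fat and cholesterol, for 24 weeks. There were 3 control and 3 Blnc1 LKO livers. The labels give the genotype of the controls as control, and their values are headed WT. Adenovirus reaches hepatocytes far better than other liver cells, so the mice model loss of Blnc1 mainly in hepatocytes. The paper names a GFP adenovirus, given to Cas9 transgenic mice, as the control for mice on a high-fat diet. The control vector of the NASH mice is not given in the sources used here. No value for Blnc1 was used, so its loss was not measured in these livers.

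Each value is the read count of a gene after scaling by the size factor of its liver, here called normalized reads. The livers had 65384969 to 89350181 reads on the listed genes, and replicate livers differed by more than counting noise. Each liver was treated as 1 animal, so the spread is that between livers. The table is of whole liver, in which fewer cells of a type and less RNA per cell cannot be told apart. All 10 hepatocyte markers were listed with reads in every liver, while the kidney tubule genes Umod and Cdh16 had at most 3 and 49 reads. Of the pancreatic genes, Prss2 had at most 8 reads and Cela1 had 951 to 1472.

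To compare the genes with each other, normalized reads were divided by the exon length of the gene (GENCODE, GRCm38). Slc38a3, a carrier of glutamine, histidine and asparagine, had the highest level, with a mean over the 6 livers of 22135 normalized reads per kilobase. Slc38a4, a carrier of small neutral and cationic amino acids, followed at 22050, and the ranges of these genes overlapped. Both lay above 99.1% of the 16733 genes with a length. Slc7a2, a transporter of arginine, lysine and ornithine, came next at 3883 normalized reads per kilobase, apart from its neighbours in every liver.

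The heavy chains and Slc38a2 formed the middle of the order. Slc3a2 had 1095 normalized reads per kilobase, Slc3a1 860 and Slc38a2 838, and the ranges of the livers overlapped between Slc3a2 and Slc3a1 and between Slc3a1 and Slc38a2. The remaining 4 genes did not overlap with their neighbours. Slc7a8 had 267, Slc7a5 89.8, Slc7a1 23.1 and Slc7a9 0.881 normalized reads per kilobase, the last above 4.56% of genes only. The 3 most abundant genes, Slc38a3, Slc38a4 and Slc7a2, made up 93.4% ± 0.335 (SD, n = 3) of the summed level per kilobase of the 10 genes in control livers and 94.2% ± 0.469 (SD, n = 3) in Blnc1 LKO livers. All 10 together took 0.334% to 0.366% of the reads of a liver.

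**Figure D1:**
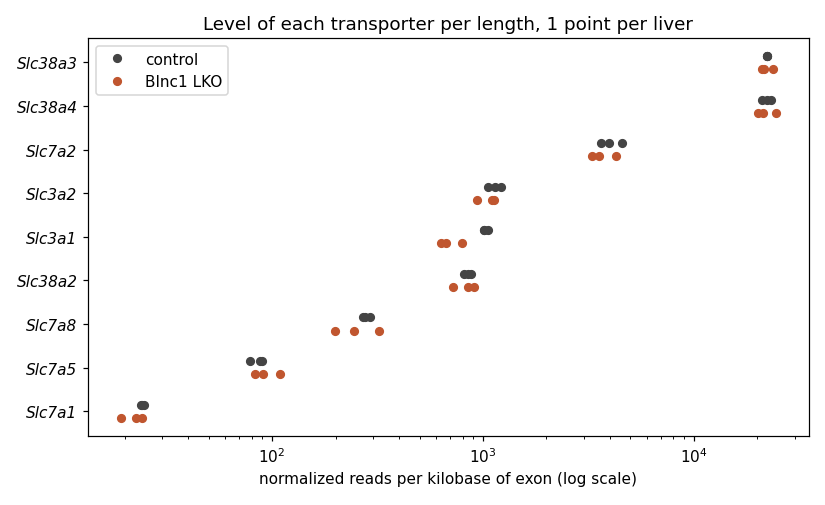
Normalized reads per kilobase of exon (horizontal axis, log scale) of the 9 transporters other than Slc7a9, with 1 point per liver, control in grey and Blnc1 LKO in orange. Slc38a3 and Slc38a4 lie near 22135 and 22050, and Slc7a1 is lowest of those shown at 23.1 on average. Slc3a1 is the gene whose orange and grey points do not overlap.

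The order depends in part on the transcripts that set the length. With the basic transcript set of GENCODE, an alternative chosen after seeing the data, Slc38a3 had 32829 and Slc38a4 22788 normalized reads per kilobase. Slc38a2 rose to 1589 with the shorter length and then stood above Slc3a2 (1279) and Slc3a1 (860). The other genes kept their places, with Slc7a2 at 4095, Slc7a8 at 327, Slc7a5 at 94.7, Slc7a1 at 37.0 and Slc7a9 at 1.14.

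Slc3a1 encodes the heavy chain that pairs with Slc7a9 in kidney and small intestine to take up cystine and dibasic amino acids, and its loss causes cystinuria. The gene lies on the + strand of chromosome 17 (GRCm38, 85028376 to 85064236) with 2271 bases of exon. Control livers had 2289, 2389 and 2294 normalized reads, and Blnc1 LKO livers had 1804, 1429 and 1509. Every Blnc1 LKO liver lay below every control liver, and Blnc1 LKO liver 1 lay nearest to the controls. The means were 2324 ± 56.0 and 1581 ± 198 (SD over 3 livers each), so that the Blnc1 LKO mean was 68.0% of the control mean, a log2 fold change of -0.56 (standard error 0.087) on the log2(value + 1) scale. When each liver was left out in turn, this log2 fold change ranged from -0.66 to -0.49.

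Over all 17297 genes tested, the livers of the groups did not overlap for 10.6% of genes, with 5.28% lower in Blnc1 LKO. Among the 10 transporters this held for 1, Slc3a1. At an adjusted p under 0.05, limma called 0 of the 10 against 0.00578% of all genes, edgeR's quasi-likelihood test on the recovered reads 0 against 0.0116%, and DESeq2 1, Slc3a1, against 0.538% of the 15617 genes to which it gave an adjusted p. At an unadjusted p under 0.05 limma passed 1, again Slc3a1, against 5.68% in either direction and 2.74% lower. Nothing is read from these counts, since Slc3a1 was chosen from the same comparison.

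The last 601 bases of the Slc3a1 exons (chromosome 17, 85063636 to 85064236, 26.5% of its exon length) overlap exons of Prepl, a gene for a serine hydrolase on the opposite strand. The library kit does not keep the strand, so reads in this stretch cannot be assigned to 1 of the genes. How the counting treated them is not given in the sources used here. Whether reads of Prepl are part of the count of Slc3a1 is thus unknown. Prepl had 1930, 2065 and 2107 normalized reads in control livers, against 2023, 1779 and 1955 in Blnc1 LKO livers. Its groups overlapped, and its log2 fold change was -0.085 (standard error 0.069; adjusted p = 0.971, limma). If all counted reads of Slc3a1 came from its 1670 bases outside Prepl, its level would be 1392 ± 33.6 normalized reads per kilobase in control and 947 ± 118 in Blnc1 LKO livers (n = 3 each, SD), in place of 1023 ± 24.7 and 696 ± 87.0 with the whole length. On that length the control mean of Slc3a1 would lie above that of Slc3a2, which was 1137 ± 76.0.

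The promoter window of Slc3a1, from 250 bases before to 50 bases after the start in RefSeq (GRCm38.p6), was searched on both strands for 4 motifs tied to liver or to amino acid transport genes. These were the amino acid response element TGATGNAA, the HNF4A motif CAAAGTCCA, the E-box CACGTG and the AP-1 motif TGACTCA. Promoters were at hand for 7 of the 10 genes. The stretches with a match are shown because they are the only matches among these 7 genes, read 5′ to 3′ on the strand of the gene with the motif or its reverse complement in capitals.
Slc3a1 HNF4A, chr17:85028298-85028327, + strand: cttggctggaCAAAGTCCAgccatgattat
Slc3a1 AP-1, chr17:85028196-85028225, + strand: gttactgtagaTGAGTCAgccacccggtat
Slc7a1 AP-1, chr5:148400009-148400038, - strand: gccatcagctcTGACTCAagctcagttgcg

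The HNF4A match, of the nuclear receptor that drives many hepatocyte genes, lies 39 bases before the Slc3a1 start, and 0.475% of the 32851 promoters of this length hold this motif. The AP-1 matches, of the Fos and Jun dimer, lie 140 bases before the Slc3a1 start and 123 bases before the Slc7a1 start, and 5.20% of promoters hold that motif. None of the 7 genes had the amino acid response element (3.97% of promoters) or the E-box (7.15%) in its window. The matches describe letters in these windows, and binding was not measured.

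Slc7a9, the light chain of Slc3a1 (chromosome 7, 35448796 to 35466036, + strand), was barely detected. It had 0, 1 and 3 reads in control livers, against 4, 1 and 5 in Blnc1 LKO livers, too few for a fold change. Slc7a13, the other light chain known to bind Slc3a1, had at most 5 reads in any liver. Both light chains together came to 0.351 to 4.56 normalized reads per kilobase, beside 629 to 1052 for Slc3a1 itself. In all 6 livers Slc3a1 mRNA was thus far above both of its known partners.

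Slc3a2 encodes the other heavy chain, known as CD98, which pairs with Slc7a5, Slc7a6, Slc7a7, Slc7a8, Slc7a10 and Slc7a11. It lies on the - strand of chromosome 19 (8706882 to 8723369). Control livers had 4282, 4005 and 3746 normalized reads, and Blnc1 LKO livers had 3304, 3968 and 3887. The groups overlapped, with Blnc1 LKO liver 1 lowest of the 6. The means were 4011 ± 268 and 3719 ± 362 (n = 3 each, SD), and the log2 fold change was -0.11 with a standard error of 0.083.

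Because both heavy chains were measured in the same livers, their ratio could be taken within each liver. Slc3a2 over Slc3a1, per kilobase, was 1.204, 1.079 and 1.051 in control livers, against 1.178, 1.787 and 1.658 in Blnc1 LKO livers. Blnc1 LKO liver 1, in which Slc3a1 was highest and Slc3a2 lowest within its group, lay inside the control range, and the other 2 lay above it. Slc3a1 made up 47.4% ± 1.80 of the heavy chain level in control and 39.8% ± 5.35 in Blnc1 LKO livers (n = 3 each, SD).

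**Figure D2:**
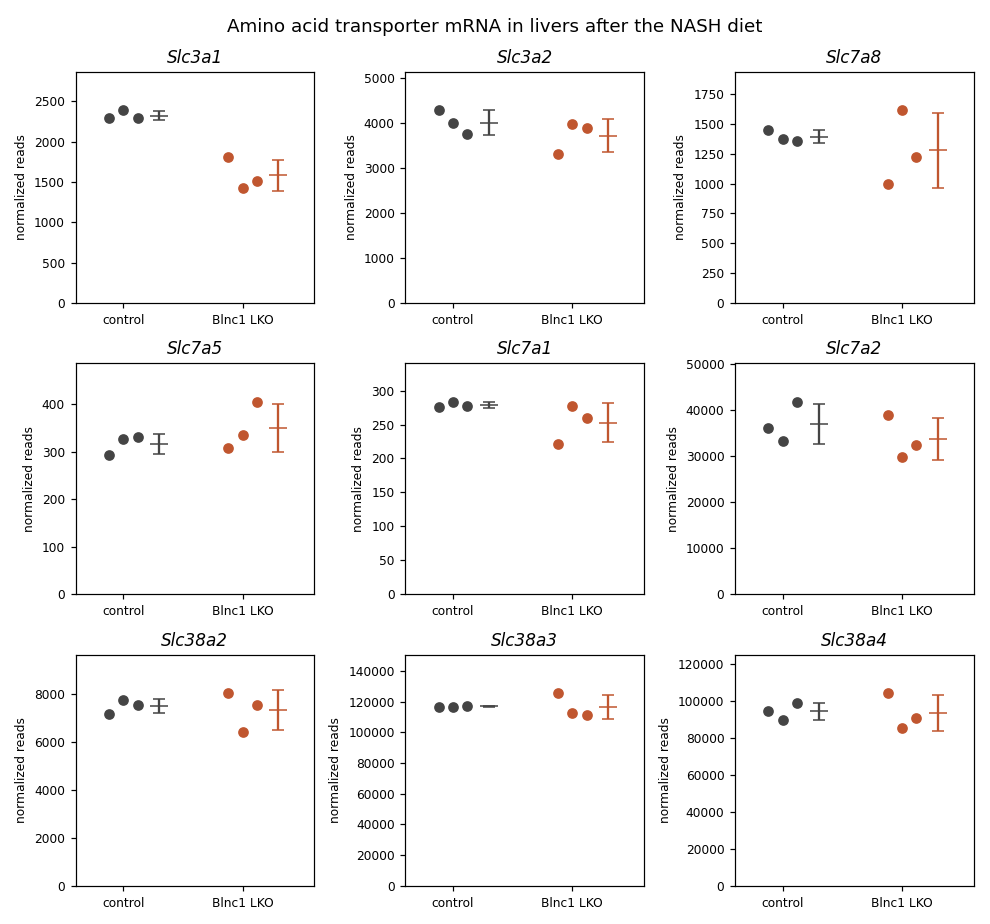
Normalized reads (vertical axes, from 0) of the 9 transporters other than Slc7a9 in 3 control (grey) and 3 Blnc1 LKO livers (orange). Points are livers 1 to 3 from left to right in each group, and the bars beside them give the mean and SD. Slc3a1 is separated between the groups (2289 to 2389 against 1429 to 1804), and the other 8 genes overlap.

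Slc7a8, a light chain for large and small neutral amino acids (chromosome 14, 54722209 to 54781946, - strand), had 1454, 1375 and 1355 normalized reads in control livers, against 993, 1614 and 1226 in Blnc1 LKO livers. The Blnc1 LKO livers spanned the control range on both sides, with liver 1 lowest and liver 2 highest of all 6. The log2 fold change was -0.15 (standard error 0.151), and 0.013 without Blnc1 LKO liver 1. Slc7a8 had the largest spread among Blnc1 LKO livers of the 9 genes with more than a few reads.

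Slc7a5, the light chain that brings leucine and other large neutral amino acids into growing cells (chromosome 8, 121881150 to 121907694, - strand), had 293, 326 and 331 normalized reads in control livers, against 307, 335 and 405 in Blnc1 LKO livers. The highest value was that of Blnc1 LKO liver 3, while liver 1 lay inside the control range and liver 2 just above it. Its log2 fold change was 0.13 (standard error 0.125), the only positive value among the 9 genes.

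Of the light chains outside the set, Slc7a7, an exporter of cationic amino acids, had 961, 883 and 929 normalized reads in control and 922, 969 and 1186 in Blnc1 LKO livers (log2 fold change 0.14, standard error 0.1003; adjusted p = 0.965, limma). Slc7a6, a close relative, had 225, 223 and 232 in control and 150, 241 and 205 in Blnc1 LKO livers (log2 fold change -0.22, standard error 0.172; adjusted p = 0.971, limma). Both overlapped between the groups. Slc7a11, the cystine and glutamate exchanger that supplies cystine for glutathione, had 45.7, 55.4 and 50.1 normalized reads in control and 38.1, 36.6 and 37.6 in Blnc1 LKO livers. Its groups did not overlap, but its log2 fold change of -0.41 (standard error 0.193) did not pass the adjusted test (adjusted p = 0.891, limma).

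The pool of Slc3a2 light chains differed little in its mean, but not in each liver. Its mean was 699 ± 14.6 normalized reads per kilobase in control and 707 ± 96.0 in Blnc1 LKO livers (n = 3 each, SD). The livers had 714, 684 and 698 in control, against 597, 762 and 764 in Blnc1 LKO. Blnc1 LKO liver 1 thus lay below the control range, and livers 2 and 3 lay above it. Slc7a7 and Slc7a8 each made up 39.9% of it in control livers. In Blnc1 LKO livers Slc7a7 made up 43.9% ± 4.86 and Slc7a8 35.9% ± 5.60, and the ranges of the groups overlapped for both. Slc7a5 made up 12.2% in control and 13.4% in Blnc1 LKO livers, and Slc7a6 7.10% and 6.09%. Slc3a2 exceeded the pool 1.627 ± 0.0935 times in control and 1.496 ± 0.0658 times in Blnc1 LKO livers.

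**Figure D3:**
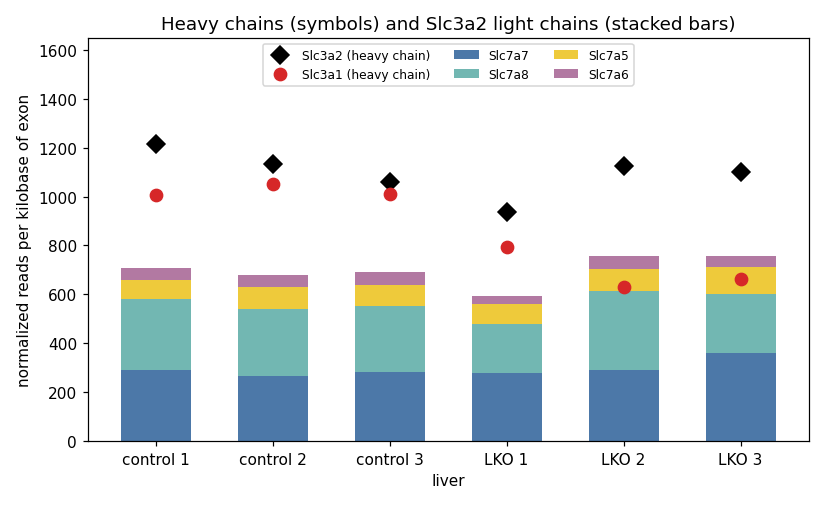
Normalized reads per kilobase of exon (vertical axis) of the heavy chains Slc3a2 (diamonds) and Slc3a1 (circles) and of the light chains Slc7a7, Slc7a8, Slc7a5 and Slc7a6 (stacked bars) in each liver. Slc3a2 lies above the stack of its light chains in all 6 livers, and Slc3a1 lies lowest in Blnc1 LKO livers 2 and 3. The level of Slc3a1 uses its whole exon length.

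Slc7a2 and Slc7a1 carry arginine, lysine and ornithine without a heavy chain. Slc7a2 (chromosome 8, 40862396 to 40922308, + strand) had 36268, 33306 and 41860 normalized reads in control livers, against 38951, 29903 and 32533 in Blnc1 LKO livers. The groups overlapped, with Blnc1 LKO liver 1 inside the control range and livers 2 and 3 below it. Its log2 fold change was -0.14 (standard error 0.115). Part of its exons, 635 bases, overlaps the noncoding gene Gm26584 on the opposite strand.

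Slc7a1, the form found in most dividing cells and low in liver (chromosome 5, 148327410 to 148399904, - strand), had 276, 283 and 277 normalized reads in control livers, against 221, 277 and 260 in Blnc1 LKO livers. Blnc1 LKO liver 1 was lowest, and liver 2 lay within the control range. The log2 fold change was -0.15 (standard error 0.117). Per kilobase, Slc7a2 made up 99.4% of the level of both genes in either group, from 136 times the level of Slc7a1 in Blnc1 LKO liver 2 to 222 times in Blnc1 LKO liver 1.

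The 3 Slc38 genes had the smallest log2 fold changes of the set. Slc38a2 (96687392 to 96699730) and Slc38a4 (96994820 to 97055956) lie close together on the - strand of chromosome 15, and Slc38a3 lies on the - strand of chromosome 9 (107650634 to 107669530). Slc38a2, a carrier of alanine and other small neutral amino acids that is induced when amino acids run short, had 7180, 7750 and 7526 normalized reads in control livers, against 8025, 6401 and 7536 in Blnc1 LKO livers (log2 fold change -0.038, standard error 0.083). Slc38a3 had 116682, 116765 and 117561 in control and 125507, 113003 and 111305 in Blnc1 LKO livers (log2 fold change -0.0070, standard error 0.083). Slc38a4 had 94350, 89926 and 98885 in control and 104161, 85448 and 90948 in Blnc1 LKO livers (log2 fold change -0.017, standard error 0.094).

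For all 3 Slc38 genes Blnc1 LKO liver 1 was the highest of the 6 livers, so that the groups overlapped. With the full transcript set, the ratio of Slc38a3 to Slc38a4 per kilobase was 1.00 ± 0.0444 in control livers, against 1.01 ± 0.0510 in Blnc1 LKO livers, while the basic set gave 32829 and 22788 normalized reads per kilobase over all 6 livers. Slc38a2 made up 1.88% ± 0.0984 of the level of the 3 genes in control and 1.84% ± 0.127 in Blnc1 LKO livers (n = 3 each, SD).

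Across the 10 genes, the median log2 fold change was -0.075, or -0.11 without Slc7a9, beside -0.001 over all genes tested. The direction rested on single livers for several genes. Leaving out 1 liver at a time turned the sign of Slc7a8, Slc38a2, Slc38a3 and Slc38a4, and Slc3a1, Slc3a2, Slc7a1, Slc7a2 and Slc7a5 kept theirs under all 13 alternatives. Slc7a9 is left out here for its few reads.

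All 3 Blnc1 LKO livers lay below the control mean on the log2 scale for Slc3a1, Slc3a2 and Slc7a1, and for the other 6 genes besides Slc7a9 they lay on both sides of it. Blnc1 LKO liver 1 was the lowest of all livers for Slc3a2, Slc7a1 and Slc7a8 and the highest for the 3 Slc38 genes. Blnc1 LKO liver 2 was the lowest for Slc3a1, Slc7a2, Slc38a2 and Slc38a4 and the highest for Slc7a8. The coefficient of variation was larger among Blnc1 LKO than among control livers for 9 of the 9 genes without Slc7a9, and for 71.4% of the 12488 genes with a mean of at least 100, whose median coefficient was 4.69% in control and 7.62% in Blnc1 LKO livers.

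**Figure D4:**
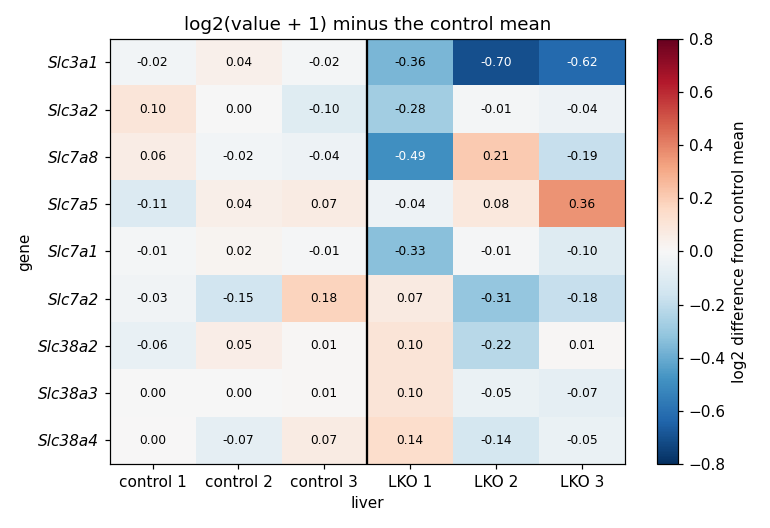
Difference of log2(value + 1) from the control mean of each gene (colour and printed value) for 9 transporters (rows) in each liver (columns). Slc3a1 is below the control mean in all 3 Blnc1 LKO livers (-0.36, -0.70 and -0.62), while Blnc1 LKO liver 1 is at -0.49 for Slc7a8 and 0.14 for Slc38a4.

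Marker lists of cell types and liver zones were set beside these values. The 10 pericentral hepatocyte markers, which include the glutamate transporter Slc1a2, had a higher mean in Blnc1 LKO livers for 10 of 10, and summed to 695354 to 744505 normalized reads in control and 777205 to 1050332 in Blnc1 LKO livers. Their mean log2 difference from control was 0.47, 0.05 and 0.30 in Blnc1 LKO livers 1 to 3. The periportal list was lower for 7 of 10, with sums of 205289 to 246914 in control and 191558 to 239996 in Blnc1 LKO livers. Its mean differences in Blnc1 LKO livers 1 to 3 were 0.01, -0.24 and -0.15, beside 0.05, -0.16 and 0.10 in control livers 1 to 3. The row of Ass1 in this list had 4 to 13 reads, few for a urea cycle enzyme that is abundant in liver, so its counting is doubtful. Without it, 6 of 9 were lower and the mean differences were 0.098, -0.22 and -0.17. By these mean differences, Blnc1 LKO liver 1 was highest, liver 3 intermediate and liver 2 lowest in the pericentral and periportal lists. The hepatocyte list had the same order of mean differences (0.073, -0.092 and -0.049), but by its sum liver 3 was lowest (7788081, 6939570 and 6630492). Slc3a1, Slc7a2, Slc38a2 and Slc38a4 had the order of the mean differences too, as did the male-biased and female-biased lists below. Few orders are possible with 3 livers, and the share of all genes with this order was not counted. Nothing is read from these matches. In all 3 Blnc1 LKO livers Slc3a1 lay below the control mean, while the pericentral list lay above it. The part of these lists in the values of the transporters was not tested.

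The stellate cell list was lower for 6 of 8, with sums of 97398 to 106697 in control and 82638 to 97833 in Blnc1 LKO livers. Its mean log2 differences were -0.33, -0.03 and -0.23 in Blnc1 LKO livers 1 to 3. Slc3a2, Slc7a1, Slc7a8 and, outside the set, Slc7a6 had the same order of livers. The share of all genes with this order was not counted, and nothing is read from the match. Other lists had other orders of Blnc1 LKO livers 1 to 3. The endothelial list, lower for 5 of 7, was at -0.170, -0.174 and -0.037. The cholangiocyte list, lower for 6 of 8, was at -0.19, 0.23 and -0.23. The lymphocyte list, lower for 5 of 7, was at -0.07, 0.02 and -0.19. The macrophage list summed to 35963 to 40948 in control and 41279 to 45677 in Blnc1 LKO livers, with 3 of 8 markers lower. No marker of these lists was at 0 in every liver. The part of these cells in the values of the transporters was not tested.

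A list of 11 male-biased liver genes also moved with the groups. All 11 had a higher mean in Blnc1 LKO livers, and their sums were 118148 to 178960 normalized reads in control and 184451 to 259993 in Blnc1 LKO livers. Their mean log2 difference from the control mean was 1.42, 0.60 and 1.16 in Blnc1 LKO livers 1 to 3, and from -0.34 to 0.53 in control livers. Of 13 female-biased genes, 8 had a higher mean in Blnc1 LKO livers, with mean differences of 0.81, 0.0025 and 0.049. Of the 13, 3 had at most 10 reads in every liver, so this count and these mean differences rest in part on few reads. The sums were 6943 to 11681 in control and 6779 to 11800 in Blnc1 LKO livers, which overlapped. The part of these lists in the values of Slc3a1, which was lower in each Blnc1 LKO liver, was not tested.

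Amino acid transporters outside the 10 genes were not used to choose them and were tested in the same fit. Of 54 listed, 53 were tested, and limma called 0 at an adjusted p under 0.05, as did edgeR and DESeq2. At an unadjusted p under 0.05, limma passed 6, 4 higher and 2 lower in Blnc1 LKO livers, against 5.68% of all genes tested. Their median log2 fold change was 0.0089, with 28 higher and 25 lower. The groups did not overlap for 4 in each direction, where 5.35% of all genes were higher and 5.28% lower without overlap.

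Slc1a4, an exchanger of alanine, serine and cysteine, had 1172, 1289 and 1351 normalized reads in control and 989, 1072 and 932 in Blnc1 LKO livers. Its groups did not overlap, and its log2 fold change was -0.35 (standard error 0.082), which did not pass (adjusted p = 0.548, limma, and 0.0703, DESeq2). Slc1a2, the glutamate transporter of hepatocytes around the central vein, had 14601, 13788 and 12318 in control and 21020, 13744 and 18380 in Blnc1 LKO livers (log2 fold change 0.37, standard error 0.142; adjusted p = 0.843, limma). Slc16a10, a carrier of aromatic amino acids, had a log2 fold change of 0.20 (adjusted p = 0.873, limma), and Mfsd12, needed for cysteine import into lysosomes, -0.30 (adjusted p = 0.870, limma).

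Among the other Slc38 genes, limma called 0 of 7. At an unadjusted p under 0.05, 1 was higher, against 5.68% of all genes tested in either direction. It was Slc38a11, at a mean of only 33.3 normalized reads (log2 fold change 0.75, standard error 0.256). The better expressed Slc38 genes named next did not pass that threshold. Slc38a9, the lysosomal arginine sensor of the mTORC1 pathway, had a log2 fold change of 0.098 (adjusted p = 0.951, limma), Slc38a1 -0.065 (adjusted p = 0.984) and Slc38a6 0.034 (adjusted p = 0.986).

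**Figure D5:**
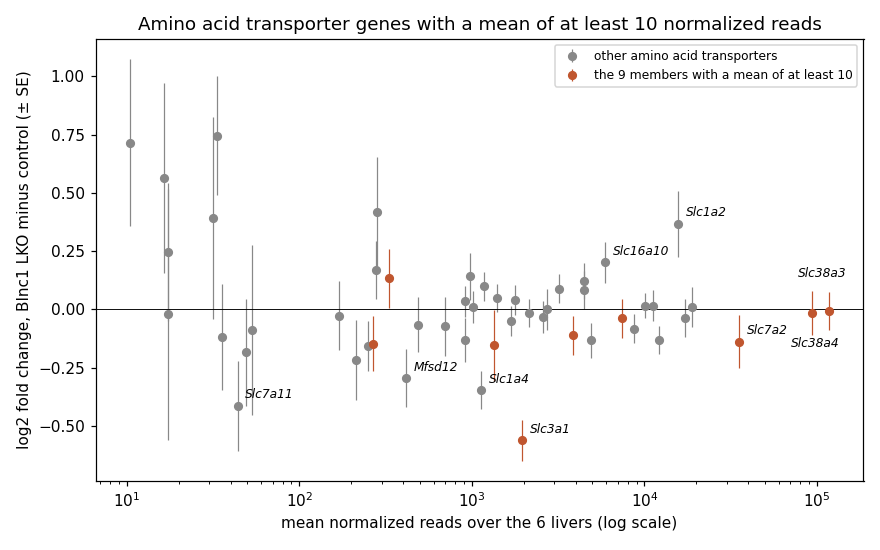
Log2 fold change, Blnc1 LKO minus control, with its standard error (vertical axis) against the mean normalized reads over the 6 livers (horizontal axis, log scale) for amino acid transporter genes with a mean of at least 10. The 9 transporters of the set are in orange and others in grey. Slc3a1 is at -0.56, Slc1a4 at -0.35 and Slc1a2 at 0.37, and several genes of low level lie farther from 0 than Slc1a2, with large standard errors.

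Genes that sense or use these amino acids were counted in the same way. Of 66 tested, limma, edgeR and DESeq2 each called 0, and 7 had an unadjusted p under 0.05 in limma, 2 higher and 5 lower in Blnc1 LKO livers. Over all genes tested that share was 5.68%, and it also stands beside the count of each list below. The median log2 fold change was -0.029. In the 20 genes of amino acid sensing by mTORC1, 0 passed the unadjusted threshold, and the group values of Nprl2, a subunit of the complex that restrains mTORC1, were 999, 1010 and 986 in control and 1108, 1059 and 1065 in Blnc1 LKO livers (log2 fold change 0.11; adjusted p = 0.930, limma).

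In the 17 genes of the amino acid response, the program run by the kinase Eif2ak4 and the factor Atf4, 1 was higher and 1 lower at the unadjusted threshold. Trib3, an inhibitor induced by Atf4, had 757, 614 and 617 normalized reads in control and 1150, 1025 and 653 in Blnc1 LKO livers (log2 fold change 0.47, standard error 0.195; adjusted p = 0.859, limma). Blnc1 LKO liver 3 lay inside the control range. Cebpb, a transcription factor, had a log2 fold change of -0.22 (adjusted p = 0.840, limma).

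Of 13 genes of arginine and lysine use, 1 was higher and 1 lower at the unadjusted threshold. They were Agmat, which hydrolyses agmatine (log2 fold change 0.16; adjusted p = 0.824, limma), and Gatm, the first enzyme of creatine synthesis (-0.16; adjusted p = 0.842). Ass1, whose counting is doubtful, is kept among these 13 genes and among the 66 above. Of 9 genes of cysteine and glutathione metabolism, which uses the cystine that Slc7a11 brings in, 1 was lower at that threshold, glutathione synthetase (Gss, log2 fold change -0.14; adjusted p = 0.857, limma). Of 8 genes of glutamine use, 2 were lower at that threshold, Gpt2 and the aspartate aminotransferase gene Got1 (log2 fold change of Got1 -0.16; adjusted p = 0.873, limma). Gpt2, a mitochondrial alanine aminotransferase, had 70608, 65811 and 72336 normalized reads in control and 60610, 60314 and 58355 in Blnc1 LKO livers, without overlap (log2 fold change -0.22, standard error 0.070; adjusted p = 0.787, limma, and 0.0984, DESeq2).

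The genes whose pattern over the 6 livers was most like that of Slc3a1 were looked for among 12487 genes with a mean of at least 100, by the mean absolute difference of their centred log2(value + 1). The 5 nearest were the chemokine gene Cxcl9 (0.0906), 2810002D19Rik (0.101), the transcription factor gene Sall1 (0.103), Limch1 (0.111) and Arhgap10 (0.111). Cxcl9 had 3695, 3636 and 3764 normalized reads in control and 3039, 2916 and 2538 in Blnc1 LKO livers. Of the other 8 transporters above that mean, which leaves out Slc7a9, the nearest was Slc7a2, at 0.212 and rank 501.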

How the data were processed

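PolyA-selected liver mRNA of 3 control and 3 Blnc1 LKO mice was sequenced with a kit that does not keep the strand. STAR alignment to mm10, HTSeq counting and scaling between livers were done by the authors. FastQC and DESeq2 are also named, and versions, annotation and filters are not given in the sources used here. The deposited values (unit signal) are gene counts scaled by the size factor of each liver, with no correction for length. In every liver 100% of values were whole multiples of 1 read, and these reads were recovered. The tolerance was 0.001 reads, or a small fixed fraction of the count where that was larger.

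Here limma (3.58.1, R 4.3.3; lmFit and eBayes with a trend) was fitted to log2(value + 1) for 17297 genes that reached a value of 1 in 3 or more livers, without covariates, with Benjamini-Hochberg adjustment over all of them and a threshold of 0.05. Fold changes on this scale understate those of low genes. Alternatives were edgeR (4.0.16, quasi-likelihood) and DESeq2 (1.42.0) on the recovered reads, scaling by library size only, a pseudocount of 0.1, no filter, a block for the replicate number, a filter of 10 reads in all livers, and each liver left out in turn. The labels' replicate numbers do not mark shared litters or days.

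The members, lists and tests were chosen with earlier results of these data known. Named genes are the 10 members, the other light chains, and in each list of transporters and pathway genes the genes past the threshold and the 3 of smallest unadjusted p among those with a mean of at least 50, of which a part is printed. Slc38a11 is named in addition, to explain the count of its list. One list of organelle carriers also holds the nucleoside transporter Slc29a3. Exon lengths came from GENCODE (GRCm38) and promoters from RefSeq (GRCm38.p6). Protein sequences were not used here.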

Additional observations from a re-analysis of the deposited data

How the results depend on the processing

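Over all genes, 1 passed the adjusted threshold, beside 2 with edgeR, 84 with DESeq2 (45 higher and 39 lower in Blnc1 LKO), 2 without a filter, 0 with the replicate block, and 0 to 13 with 1 liver left out. The count was 13 without Blnc1 LKO replicate 2, 2 without Blnc1 LKO replicate 1 or control replicate 2, and 0 without control replicate 1. Among the 10 transporters the count was 0, or 1 (Slc3a1) with DESeq2 and without Blnc1 LKO replicate 1. It was 0 for the other transporters and the pathway genes under every alternative run. The median log2 fold change of the 10 transporters was -0.075, -0.11 with at least 10 reads in every liver, which leaves 9 genes, and -0.089 to -0.020 with 1 liver left out. The log2 fold change of Slc7a10, at 3 to 10 reads a liver, turned with edgeR (0.079) and DESeq2 (0.051), and with 1 liver left out it ranged from -0.37 to 0.14, that of Slc38a1 from -0.13 to 0.059 and that of Cdo1 from -0.053 to 0.27. The turns of Slc38a1 and Cdo1 came without Blnc1 LKO replicate 1, and their cause was not tested. Of 30 genes outside the set that the naming rule gave, 27 kept their sign under every alternative in which they were fitted. Same-numbered livers did not deviate together (correlations of -0.058, -0.019 and -0.107), so the numbers were not taken to pair them. At 0 to 5 reads, Slc7a9 allows no comparison.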
